A study of Homo sapiens with 6 samples.

Results

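Autophagy and mTOR pathway genes were examined in RNA-seq of irradiated HCT116 cells with or without a knockout of CAD. The set holds 43 genes, which were found by their gene names in the table of 20020 genes, and all 43 were present in it. They comprise 5 genes of the ULK1 complex, 5 of the class III PI3K complexes, 5 ATG9, ATG2 and WIPI genes, 7 genes of the conjugation enzymes and 4 of the ATG8 family. The rest are 5 cargo receptors, 5 mTOR complex subunits, 3 genes of the TSC complex and RHEB, 2 of the TFEB family and 2 lysosomal membrane proteins. HCT116 is an established line of human colorectal carcinoma cells. The 3 CAD-KO2+IR libraries came from cells carrying 1 of the CAD guides and the 3 sgVec+IR libraries from vector control cells. The sample labels give the CAD knockout and the irradiation, while the name CAD-KO2, which stands for the guide, and a dose of 8 Gy with harvest after 24 h come from the study itself. CAD-KO2 was a stable line made with a lentiviral CRISPR vector, and the sources used here do not say whether it was 1 clone or a pool. Both groups were irradiated, so the libraries hold no comparison with unirradiated cells.

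In macroautophagy a double membrane closes around cytoplasmic cargo and delivers it to the lysosome. The ULK1 kinase complex starts the process, a class III PI3K complex marks the growing membrane with phosphatidylinositol 3-phosphate, and a pair of ubiquitin-like reactions attach ATG12 to ATG5 and the ATG8 proteins to lipid. mTORC1, which is active when nutrients are plentiful, phosphorylates ULK1 and ATG13 and holds back autophagy, and it also keeps TFEB, a transcription factor for lysosomal and autophagy genes, in the cytoplasm. Much of this control acts on proteins through phosphorylation, lipidation and turnover, which mRNA counts do not measure.

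The total counts ran from 14032994 to 19574144 per library. The epithelial markers EPCAM, KRT8, KRT18, KRT19, CDH1 and CDX2 were detected in every library, with the lowest count, 74, for CDX2. Among the markers of other cell types, CD3E had 0 counts, PTPRC at most 3, CD68 at most 1, PECAM1 at most 11 and VIM 7 to 43, whereas COL1A1 was counted 155 to 715 times. Here and below, the values of a group are listed in the order of its replicates 1 to 3. For DFFB, which encodes CAD, the counts were 185, 192 and 217 in CAD-KO2+IR, all of them under the 357, 335 and 297 of sgVec+IR. The labels do not say that the libraries of a group came from separate cultures, so p-values measure the spread between these libraries, which may be technical. A lower level in bulk RNA can be fewer cells with the transcript or less transcript per cell, and these cannot be told apart. A pair of libraries stood apart before any comparison of the groups. Levels are given as CPM, read counts relative to the library total after TMM scaling. Across genes, sgVec+IR replicate 3 had Pearson correlations of log2 CPM of 0.907 with replicate 1 and 0.903 with replicate 2, while replicates 1 and 2 reached 0.995. CAD-KO2+IR replicate 2 had 0.972 with replicate 1 and 0.978 with replicate 3, while those reached 0.995. Fold changes are given with and without sgVec+IR replicate 3 where leaving it out turned or moved them most, and the plot of fold changes shows both for every member tested.

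The differences of both libraries from their own group followed the base composition of the members. The GC content of the longest coding transcript ran from 36.5% in RICTOR to 64.2% in ULK1. The central 90 coding bases of 2 GC-rich and 2 AT-rich members are shown because this property went with the level in sgVec+IR replicate 3. They are given 5′ to 3′ on the coding strand from the transcripts of GENCODE release 29 on GRCh38, with G and C in capitals.
ULK1: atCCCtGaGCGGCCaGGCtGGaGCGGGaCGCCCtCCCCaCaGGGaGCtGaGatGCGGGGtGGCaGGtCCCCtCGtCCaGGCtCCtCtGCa
ATG2A: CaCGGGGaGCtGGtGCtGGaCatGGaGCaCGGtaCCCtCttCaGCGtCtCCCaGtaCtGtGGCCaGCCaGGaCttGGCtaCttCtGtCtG
RICTOR: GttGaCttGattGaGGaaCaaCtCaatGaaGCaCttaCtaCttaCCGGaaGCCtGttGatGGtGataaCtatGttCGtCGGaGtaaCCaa
LAMP2: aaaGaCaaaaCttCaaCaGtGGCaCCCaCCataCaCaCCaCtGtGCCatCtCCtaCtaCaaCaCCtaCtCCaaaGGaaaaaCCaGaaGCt
G and C make up 71.1% of the stretch from ULK1 and 61.1% from ATG2A, against 42.2% from RICTOR and 45.6% from LAMP2. In sgVec+IR replicate 3 the level was 0.342 times the level of replicates 1 and 2 for ULK1 and 0.275 times for ATG2A. For RICTOR it was 2.22 times and for LAMP2 1.59 times. CAD-KO2+IR replicate 2 differed from replicates 1 and 3 in the same directions, at 0.719 times for ULK1 and 0.640 times for ATG2A and at 1.36 times for RICTOR and 1.38 times for LAMP2.

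Over the 42 members with enough counts to be tested, the log2 difference of sgVec+IR replicate 3 from replicates 1 and 2 had a Pearson correlation of −0.78 with GC content (Spearman −0.74). For CAD-KO2+IR replicate 2 against replicates 1 and 3 it was −0.85 (Spearman −0.82). Over 12885 genes tested with a GC value these correlations were −0.71 and −0.81, of the same sign and similar size. The points are genes of the same libraries and are not independent replicates. Of the 13 members with a GC content of at least 55%, 13 were lower in sgVec+IR replicate 3 than the mean of replicates 1 and 2, and 13 of the 15 members under 45% were higher there than in both. The exceptions were OPTN, at 0.553 times the level of the other replicates, and ATG3, whose level lay between them. ATG7, MAP1LC3B and TAX1BP1 stood above the other members of similar GC content, at 2.34, 1.97 and 1.85 times, and BECN1 and ULK2 stood below, at 0.585 and 0.619 times. sgVec+IR replicate 3 was the lowest of the 6 libraries for 17 members and the highest for 18. The median size of its difference was 0.66 on the log2 scale, against 0.08 between sgVec+IR replicates 1 and 2. In 38 of 42 members this difference was larger than the difference between CAD-KO2+IR and sgVec+IR over the remaining 4 libraries. The part of base composition in these levels was not tested.

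**Figure D1:**
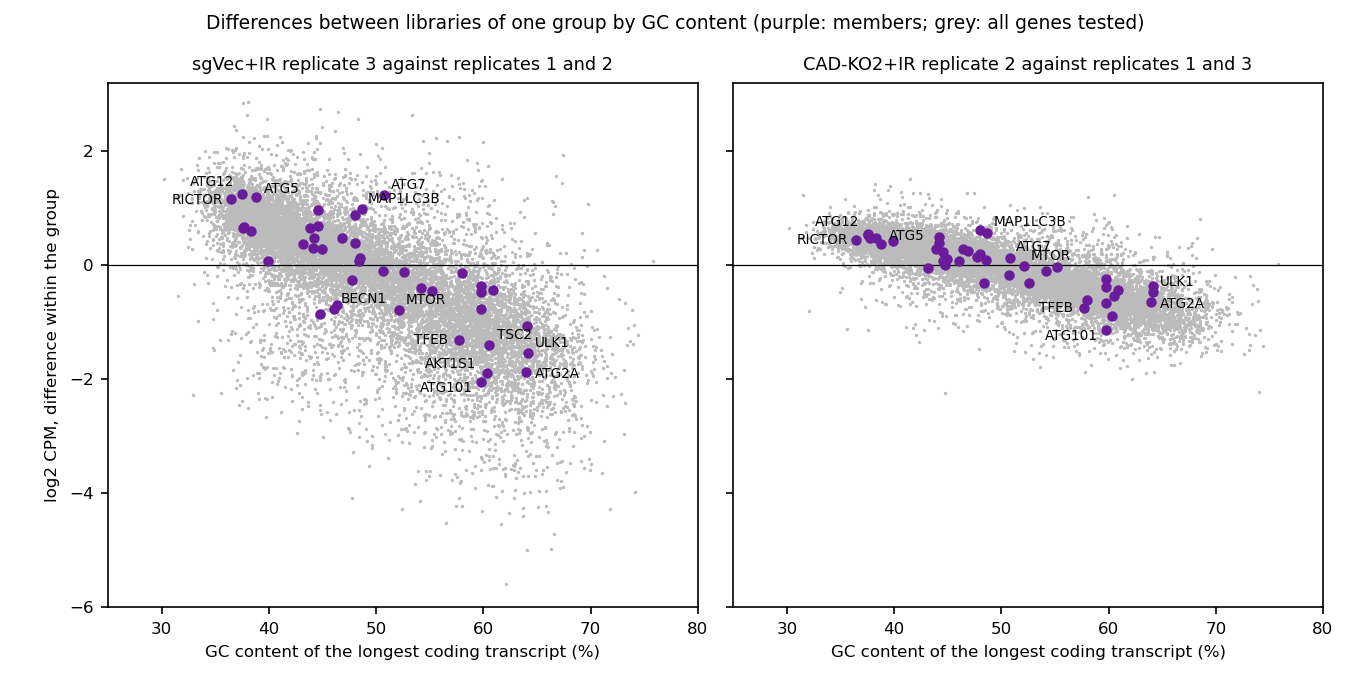
Log2 difference in CPM between 1 library and the mean of the other 2 of its group, against GC content in percent, for 42 members (purple) and all genes tested with a GC value (grey). In sgVec+IR replicate 3 (left) all 13 members with a GC content of at least 55% lie below 0, and CAD-KO2+IR replicate 2 (right) slopes the same way over a narrower range.

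No autophagy or mTOR pathway gene passed the test between CAD-KO2+IR and sgVec+IR. In edgeR's quasi-likelihood test 0 of 42 members were differentially expressed genes (DEGs), for which the fold change had to reach 1.5 and the adjusted p to stay under 0.05, where 0.0309% of all 12925 genes tested were. At an unadjusted p under 0.05 the count was also 0 of 42, against 2.85% of all genes. DESeq2 called 0 members as well, against 22 DEGs up and 25 down of all 12925 genes. In DESeq2 0 members had an unadjusted p under 0.05, against 166 of all genes up and a larger number down. Log2 fold changes, CAD-KO2+IR over sgVec+IR, ran from −0.52 in ATG10 to 0.39 in ATG3, with 20 members higher, 22 lower and a median of −0.03. The median over all genes was −0.01. Leaving out sgVec+IR replicate 3 gave 24 higher and 18 lower with a median of 0.05, and leaving out both outlying libraries the same split with a median of 0.01. With library sizes alone in place of TMM, 15 members were higher and 27 lower while the median over all genes moved to −0.04. The CPM of the groups did not overlap for 3 of 42 members, ATG3, ATG10 and GABARAPL2, which is below the 10.2% of all genes. The adjusted p was 0.9999 for each member tested in edgeR, and the median SD of the members' log2 CPM within sgVec+IR was 0.38. A correction for GC content, tried as an alternative, entered the smooth trend of each library's deviations on the GC content of the genes as an offset of the fit.

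**Figure D2:**
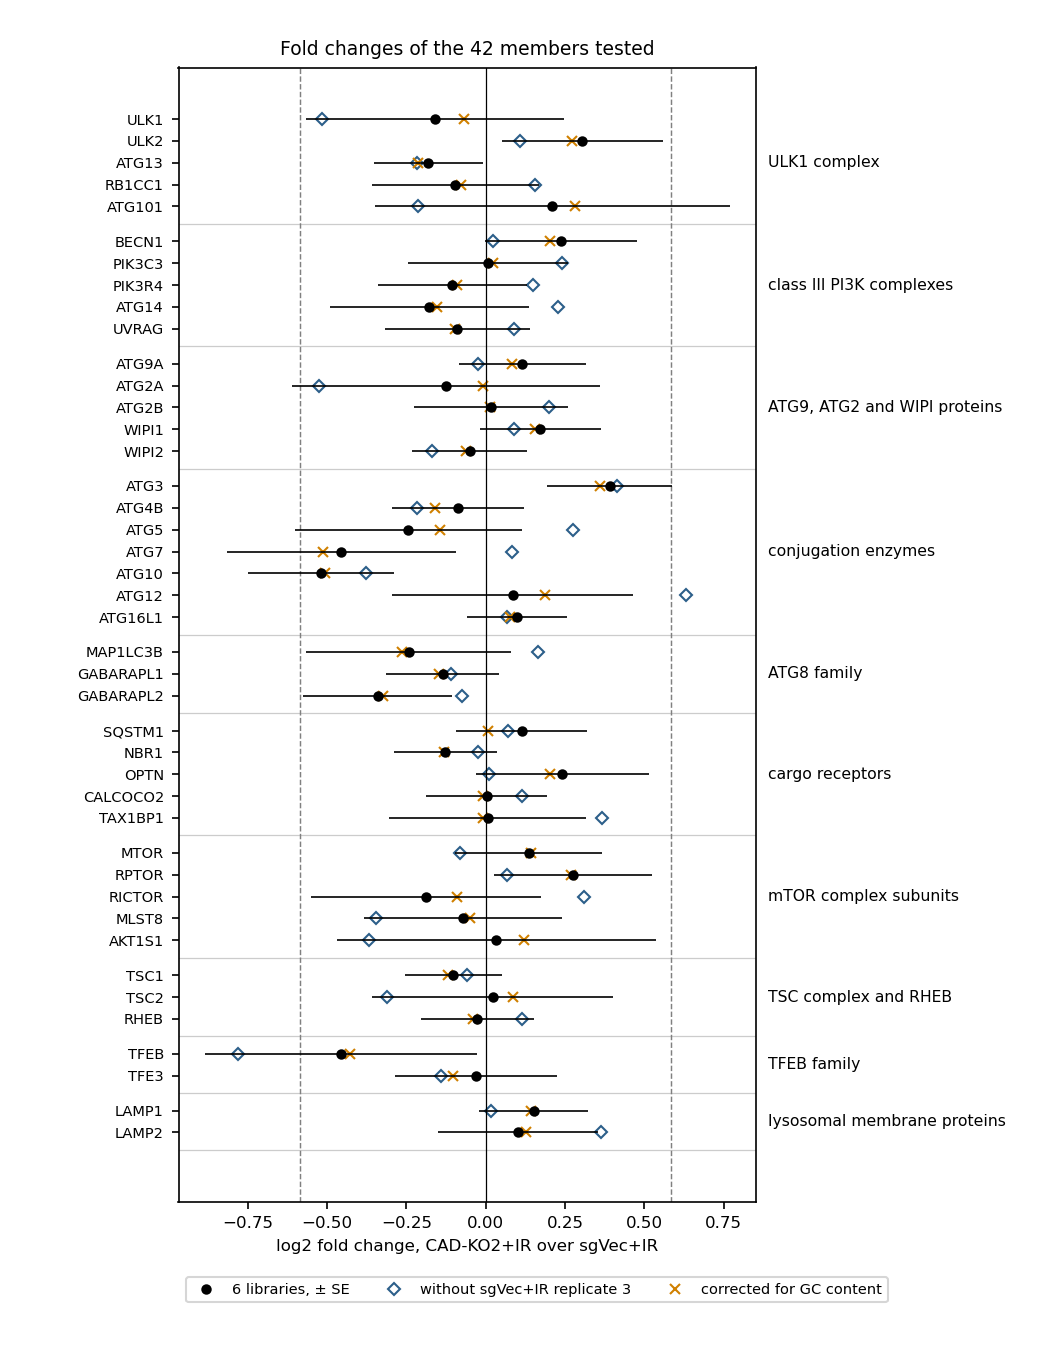
Log2 fold change of CAD-KO2+IR over sgVec+IR for the 42 members tested, grouped by role, from edgeR with all 6 libraries (black, ± SE), without sgVec+IR replicate 3 (blue diamonds) and after a correction for GC content (orange crosses). Dashed lines mark a fold change of 1.5. All black points lie between −0.52 and 0.39, and ATG12, ATG7, ATG5 and RICTOR move most without that library.

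The ULK1 complex joins the kinase ULK1 or its paralog ULK2 with ATG13, the scaffold RB1CC1 (FIP200) and ATG101. ULK1 (chr12:131894651-131923167, forward strand of GRCh38) had 58.2, 40.2 and 54.2 CPM in CAD-KO2+IR and 71.2, 74.3 and 24.5 CPM in sgVec+IR. The 2 sgVec+IR libraries that resembled each other lay above all CAD-KO2+IR libraries and the third lay below all of them, so the groups overlapped. ULK1 had a log2 fold change of −0.16 (SE 0.41), and of −0.52 (SE 0.18, adjusted p = 0.405, edgeR) without sgVec+IR replicate 3. Within the complex the values ran from −0.18 in ATG13 to 0.31 in ULK2, with 2 higher and 3 lower. ATG101 varied most between libraries, from 4.09 CPM in sgVec+IR replicate 3 to 20.2 CPM in sgVec+IR replicate 2, and its log2 fold change of 0.21 turned to −0.21 without replicate 3.

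The class III PI3K complexes hold the lipid kinase PIK3C3 (VPS34), its regulatory subunit PIK3R4 and the scaffold BECN1, with ATG14 in the autophagy complex and UVRAG in the endosomal complex. BECN1 (reverse strand, chr17:42810134-42833350) had 57.6, 59.7 and 56.4 CPM in CAD-KO2+IR and 55.5, 58.5 and 33.1 CPM in sgVec+IR. Apart from sgVec+IR replicate 3, which was lower, all libraries lay between 55.5 and 59.7 CPM. Its log2 fold change was 0.24 (SE 0.24) and came to 0.02 without that library. The 5 genes ran from −0.18 in ATG14, or 0.23 without it, to 0.24 in BECN1, 2 of them higher. Without sgVec+IR replicate 3 all 5 were higher, with a median of 0.15, and after the correction for GC content 2 were.

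ATG9A is a membrane protein on vesicles that seed the new membrane, ATG2A and ATG2B are lipid transfer proteins, and WIPI1 and WIPI2 bind phosphatidylinositol 3-phosphate. Of these 5 genes 3 were higher and 2 lower, from −0.12 in ATG2A, or −0.52 without sgVec+IR replicate 3, to 0.17 in WIPI1. ATG2A had 44.5, 26.4 and 38.6 CPM in CAD-KO2+IR and 46.5, 58.6 and 13.96 CPM in sgVec+IR. Like ULK1, it was higher in sgVec+IR replicates 1 and 2 than in every CAD-KO2+IR library and lowest in replicate 3.

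The conjugation enzymes carried both ends of the range. ATG10, the E2-like enzyme that transfers ATG12 to ATG5, is on the forward strand at chr5:81972025-82276857 and was counted at a low level. It had 7.05, 7.43 and 8.37 CPM in CAD-KO2+IR and 9.30, 10.5 and 12.98 CPM in sgVec+IR. Every CAD-KO2+IR library was lower than every sgVec+IR library. The log2 fold change was −0.52 (SE 0.23, adjusted p = 0.9999, edgeR), and its unadjusted p was the smallest among the members but over 0.05. It kept its direction in all 18 alternative fits, from −0.62 to −0.29. These fits reuse the same libraries, and since the groups did not overlap, leaving out libraries could hardly turn it. RPS23, a gene on the opposite strand, overlaps 6.86% of the exon bases of ATG10, which leaves its counts uncertain where strand was ignored. ATG3, the E2-like enzyme that attaches ATG8 proteins to phosphatidylethanolamine (reverse strand, chr3:112532509-112562046), had 49.9, 66.6 and 49.0 CPM in CAD-KO2+IR and 45.4, 37.4 and 43.4 CPM in sgVec+IR. Here every CAD-KO2+IR library was higher, and replicate 2 was the highest of them. The log2 fold change was 0.39 (SE 0.20, adjusted p = 0.9999, edgeR), with a range of 0.23 to 0.48 over the alternatives.

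ATG5 (reverse strand, chr6:106045423-106325791), the acceptor of ATG12, had 44.1, 58.6 and 46.8 CPM in CAD-KO2+IR and 42.4, 40.0 and 94.8 CPM in sgVec+IR. sgVec+IR replicate 3 was far above all other libraries, and the log2 fold change was −0.24 (SE 0.36) with it and 0.28 without it. ATG12, the ubiquitin-like protein itself, had 185, 287 and 208 CPM in CAD-KO2+IR and 154, 139 and 348 CPM in sgVec+IR. All CAD-KO2+IR libraries lay above sgVec+IR replicates 1 and 2 and below replicate 3. Its log2 fold change was 0.09 (SE 0.38), and 0.63 (SE 0.20, adjusted p = 0.388, edgeR) without replicate 3. ATG7, the E1-like enzyme of both reactions, had 27.0, 30.3 and 28.3 CPM against 26.6, 27.3 and 63.7 CPM, and its −0.45 (SE 0.36) became 0.08 without that library. Of the 7 enzymes, including the protease ATG4B and the ATG12–ATG5 partner ATG16L1, 3 were higher and 4 lower.

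The ATG8 proteins are the ubiquitin-like tags of the autophagosome membrane. MAP1LC3B, which encodes LC3B (forward strand, chr16:87383995-87404779), had 116, 178 and 124 CPM in CAD-KO2+IR and 122, 127 and 246 CPM in sgVec+IR, so the 2 outlying libraries were the 2 highest. Its log2 fold change was −0.24 (SE 0.32), and 0.16 without sgVec+IR replicate 3. GABARAPL2 (forward strand, chr16:75566351-75577881) had 43.5, 48.6 and 48.5 CPM in CAD-KO2+IR and 48.6, 50.1 and 79.4 CPM in sgVec+IR. The groups did not overlap, but the highest CAD-KO2+IR library at 48.557 CPM and the lowest sgVec+IR library at 48.620 CPM were nearly level. Its log2 fold change was −0.34 (SE 0.23) and −0.07 without sgVec+IR replicate 3. GABARAPL1 (forward strand, chr12:10212458-10223130) was the steadiest of the family, with 33.5, 27.4 and 34.96 CPM against 34.2, 34.8 and 36.3 CPM and a log2 fold change of −0.14 (SE 0.18). All 3 members tested were lower, and 1 of them, MAP1LC3B, was higher without sgVec+IR replicate 3.

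GABARAP was not tested, since its counts were only 7, 2 and 3 in CAD-KO2+IR and 1, 3 and 5 in sgVec+IR. A count of 3 corresponds to 0.158 to 0.212 CPM in these libraries, so its levels lay near the limit of detection and no fold is given. In GENCODE release 29 an annotated gene on the same strand, AC120057.2, overlaps 30.5% of the exon bases of GABARAP, and that gene had 0 counts in every library. How the counting treated reads in the shared part is not given in the sources used here, so the low count of GABARAP is uncertain. In all, 26 members share exon bases with another annotated gene, and for 20 that gene is in the table. On the opposite strand, MRNIP overlaps 20.7% of the exon bases of SQSTM1 and VGLL4 18.1% of those of ATG7. Such overlaps leave counts uncertain where strand was ignored. ATG9A shares 38.8% of its exon bases with AC068946.2 on the same strand and was counted 495 to 911 times. How far such overlaps bear on the counts was not tested.

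Levels of different genes were compared within a library as counts per kilobase of the union of exons. On this scale MAP1LC3B held 49.1%, 59.6% and 48.6% of the counts of the 4 ATG8 genes in CAD-KO2+IR and 48.5%, 48.7% and 56.8% in sgVec+IR. GABARAPL2 followed with 31.3% ± 2.58 (SD, n = 3) in CAD-KO2+IR and 33.2% ± 0.930 in sgVec+IR. GABARAPL1 held 16.1% ± 3.62 and 15.3% ± 3.83, and GABARAP 0.205% ± 0.152 and 0.144% ± 0.0757. The order was the same in all 6 libraries, but it depended on the length used. MAP1LC3B and GABARAPL2 have exon unions of 5313 and 3034 bases and longest transcripts of 2688 and 1002 bases. Per kilobase of the longest transcript, GABARAPL2 was above MAP1LC3B in every library except CAD-KO2+IR replicate 2 and sgVec+IR replicate 3. On the exon union the mean share of MAP1LC3B differed by 1.08 percentage points between the groups, less than either SD. Leaving out 1 library at a time moved this difference from −2.52 to 3.798 points.

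**Figure D3:**
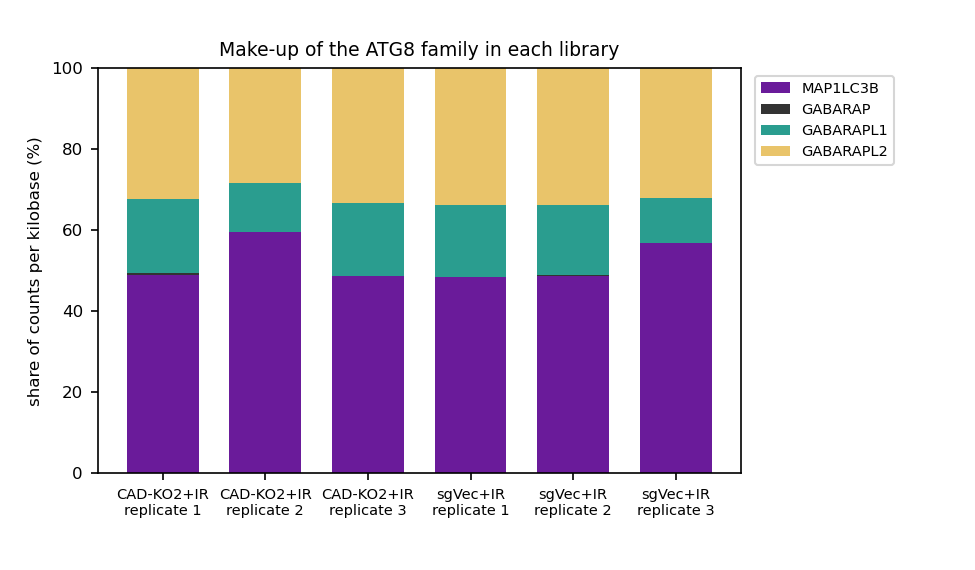
Share of the counts per kilobase of exon union of 4 ATG8 genes held by each, in percent, in each of the 6 libraries (stacked bars). MAP1LC3B takes 48.5% to 59.6%, with the 2 highest shares in CAD-KO2+IR replicate 2 and sgVec+IR replicate 3, and GABARAP is at most 0.375%.

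Cargo receptors bind ubiquitylated cargo and ATG8 proteins at once. SQSTM1 (forward strand, chr5:179806398-179838078) encodes p62, itself a substrate of autophagy, and had 194, 120 and 174 CPM in CAD-KO2+IR and 152, 158 and 141 CPM in sgVec+IR. CAD-KO2+IR replicates 1 and 3 lay above all sgVec+IR libraries and replicate 2 below them. SQSTM1 had a log2 fold change of 0.11 (SE 0.21), and 0.07 without sgVec+IR replicate 3. It was 0.29 without CAD-KO2+IR replicate 2, −0.02 without CAD-KO2+IR replicate 1 and 0.00857 after the correction for GC content. Of the 5 receptors 4 were higher, from −0.13 in NBR1 to 0.24 in OPTN, a receptor for damaged mitochondria and bacteria. CALCOCO2 (NDP52) and TAX1BP1 were at 0.00338 and 0.00602, values whose sign changed with the scaling or the correction for GC content. Without sgVec+IR replicate 3 they were at 0.12 and 0.37, and OPTN was at 0.01.

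mTOR is the kinase of both mTORC1 and mTORC2, RPTOR defines the first and RICTOR the second, MLST8 belongs to both, and AKT1S1 (PRAS40) is an inhibitory subunit of mTORC1. MTOR (reverse strand, chr1:11106535-11262507) had 208, 205 and 206 CPM in CAD-KO2+IR and 224, 212 and 126 CPM in sgVec+IR. The CAD-KO2+IR libraries were nearly level, at 206 ± 1.25 CPM (SD, n = 3), and sgVec+IR replicate 3 alone was low. Its log2 fold change was 0.14 (SE 0.23), and −0.08 without that library. The 5 subunits ran from −0.19 in RICTOR to 0.28 in RPTOR, with 3 higher. When sgVec+IR replicate 3 was left out, RICTOR was the highest at 0.31 and RPTOR was at 0.07, with 2 higher and a median of −0.08. RICTOR had 35.6, 54.5 and 44.9 CPM against 36.4, 36.2 and 81.4 CPM, and RPTOR 130, 98.4 and 126 CPM against 113, 113 and 66.5 CPM, so the same library was highest for one and lowest for the other. AKT1S1 had a wide spread, from 26.8 CPM in sgVec+IR replicate 3 to 107 CPM in sgVec+IR replicate 1, and had a log2 fold change of 0.03 (SE 0.50), or −0.37 without replicate 3.

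TSC1 and TSC2 form a GTPase-activating complex that turns off RHEB, the small GTPase that activates mTORC1. TSC1 was level across libraries at 51.1 to 59.5 CPM, with a log2 fold change of −0.10 (SE 0.15). Its complex partner TSC2 had 96.8, 66.4 and 97.2 CPM in CAD-KO2+IR and 108, 107 and 40.6 CPM in sgVec+IR, and its 0.02 (SE 0.38) became −0.31 without sgVec+IR replicate 3. RHEB was at −0.03 (SE 0.18), or 0.12 without that library.

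TFEB (reverse strand, chr6:41683978-41736259), which mTORC1 phosphorylates, had 9.16, 4.64 and 7.29 CPM in CAD-KO2+IR and 11.4, 12.8 and 4.58 CPM in sgVec+IR. Its lowest library in each group was the outlying one, and sgVec+IR replicates 1 and 2 lay above every CAD-KO2+IR library. The log2 fold change was −0.46 (SE 0.43), −0.78 (SE 0.28, adjusted p = 0.407, edgeR) without sgVec+IR replicate 3 and −0.43 after the correction for GC content. Its direction held in all 18 alternative fits, from −0.78 to −0.20, but they reuse the same libraries and are not independent. TFE3, a related factor, was at −0.03 (SE 0.26). LAMP1 (forward strand, chr13:113297241-113323672), a major protein of the lysosomal membrane, had 252, 237 and 232 CPM in CAD-KO2+IR and 242, 234 and 174 CPM in sgVec+IR. Apart from sgVec+IR replicate 3, its libraries overlapped closely, and the log2 fold change was 0.15 (SE 0.17), or 0.02 without that library. LAMP2, needed for the fusion of autophagosomes with lysosomes, was at 0.10 (SE 0.25), or 0.36 without it.

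**Figure D4:**
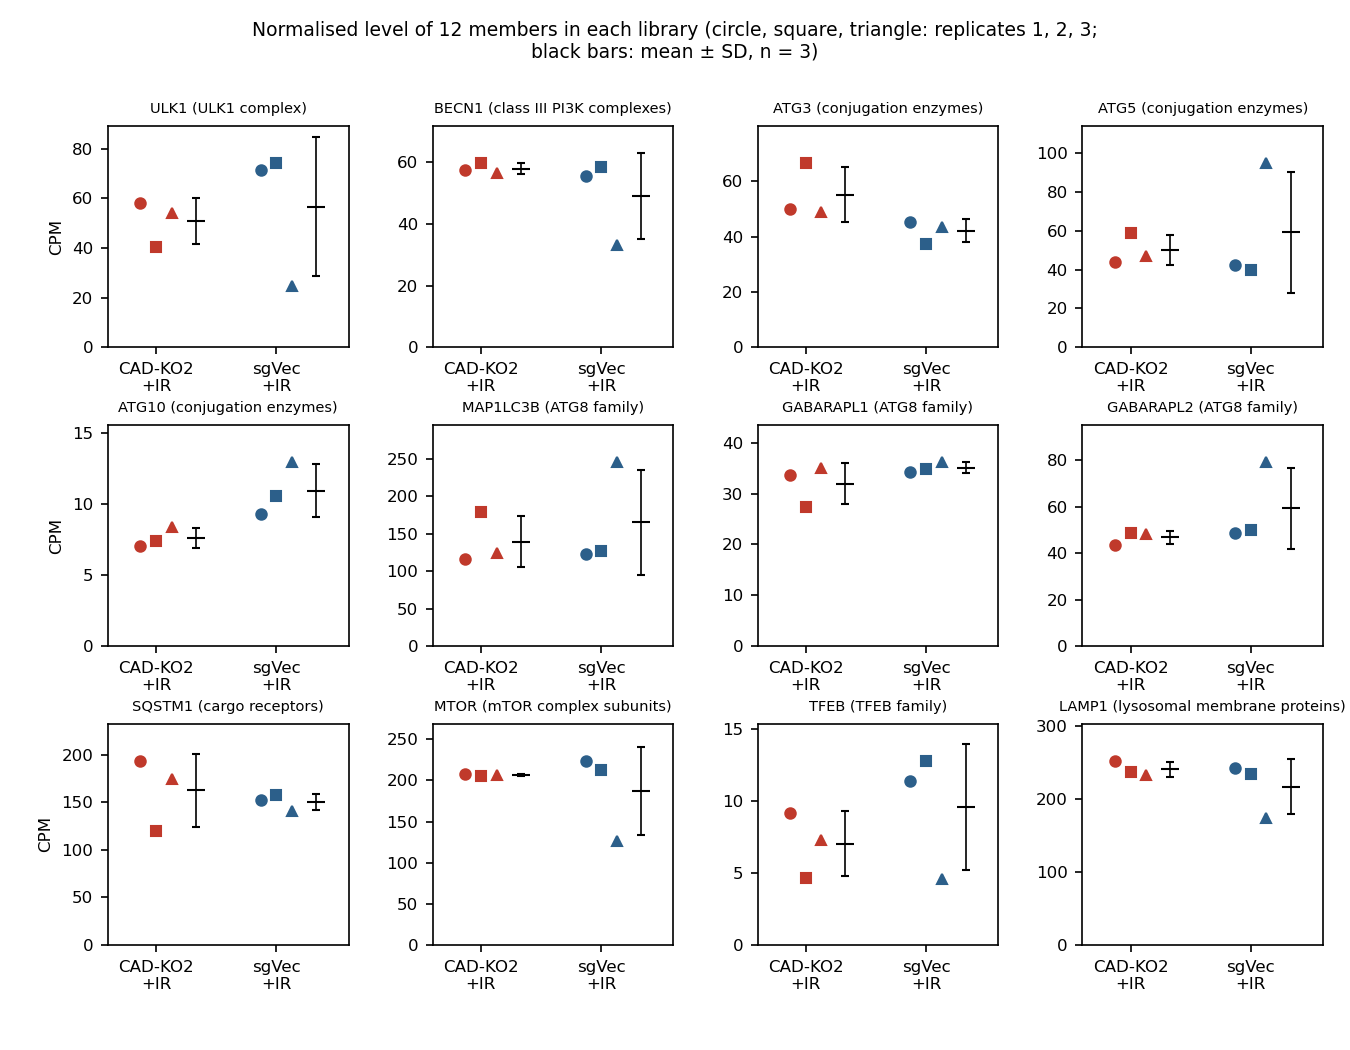
CPM of 12 members in each library, with replicates 1, 2 and 3 as circles, squares and triangles and the mean ± SD (n = 3) beside each group. The triangle of sgVec+IR lies apart from the other libraries in ULK1, BECN1, ATG5, MAP1LC3B, GABARAPL2, MTOR and LAMP1, and the groups do not overlap in ATG3, ATG10 and GABARAPL2.

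The members that passed a threshold depended on how the 2 outlying libraries were treated. With limma-voom and sample weights, which set the weight of sgVec+IR replicate 3 to 0.0404 and that of CAD-KO2+IR replicate 2 to 0.154, 5 of 42 members had an adjusted p under 0.05, against 22.3% of all genes. ATG12 was higher at 0.47 (adjusted p = 0.0022, limma). ULK1 (−0.40), MLST8 (−0.27), ATG2A (−0.38) and TFEB (−0.65) were lower, and TFEB was the only one with a fold change of at least 1.5 (adjusted p = 0.00640, limma), which made 1 of 42 members a DEG in that fit, against 5.15% of all genes. At an unadjusted p under 0.05 the weighted fit called 13 of 42 members, against 37.1% of all genes. Without sgVec+IR replicate 3, 3 of 42 members had an unadjusted p under 0.05 in edgeR, ATG12, ULK1 and TFEB, against 11.9% of all genes. After the correction for GC content another 3 of 42 did, RPTOR at 0.27, GABARAPL2 at −0.32 and ATG10 at −0.51, against 10.5% of all genes, and none of them was among the 3 before. With both libraries left out, with 2 left in each group, 12 of 42 did, against 29.7% of all genes. At an adjusted p under 0.05 it was 7 of 42, against 16.2% of all genes. ATG12, SQSTM1, RPTOR and ATG3 were higher and ULK1, ATG2A and TFEB lower, with no fold change reaching 1.5. The log2 difference between the groups over the libraries left still went with GC content. Its Pearson correlation was −0.46 over the members and −0.34 over all genes with a GC value. After the correction for GC content, ULK1 was at −0.07, SQSTM1 at 0.00857, TFEB at −0.43 and ATG3 at 0.36. In that fit 0 of 42 members had an adjusted p under 0.05, against 44 of 12925 genes. The part of GC content in these calls was not tested. Members described beyond the rule for naming, such as ATG12, ATG7, ATG101, TSC2 and MLST8, were chosen after their values were seen.

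Ratios between related members within a library do not depend on scaling between libraries. They can still carry the differences between libraries that went with GC content, since some paired genes differ in it. It was 59.8% in RPTOR and 36.5% in RICTOR, and 48.5% in TSC1 and 60.5% in TSC2. Over 8 pairs, none differed between the groups in a two-sided exact permutation test, which cannot go below p = 0.1 with 3 libraries against 3. WIPI1/WIPI2 was the only pair whose groups did not overlap, with log2 ratios of −2.17, −1.89 and −2.12 in CAD-KO2+IR and −2.31, −2.33 and −2.19 in sgVec+IR. The difference was 0.21 (exact permutation test p = 0.1, adjusted p = 0.8 over 8 pairs). The overlap of WIPI1 with ARSG, a gene on the opposite strand that covers 24.3% of its exon bases, leaves its counts uncertain where strand was ignored. RPTOR/RICTOR had log2 ratios of 1.86, 0.85 and 1.49 in CAD-KO2+IR and 1.63, 1.64 and −0.29 in sgVec+IR, so that the counts of RICTOR exceeded those of RPTOR in sgVec+IR replicate 3 alone. In the same library TSC1 had more counts than TSC2, at a log2 ratio of 0.55, whereas the other 5 libraries lay between −0.998 and −0.28.

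**Figure D5:**
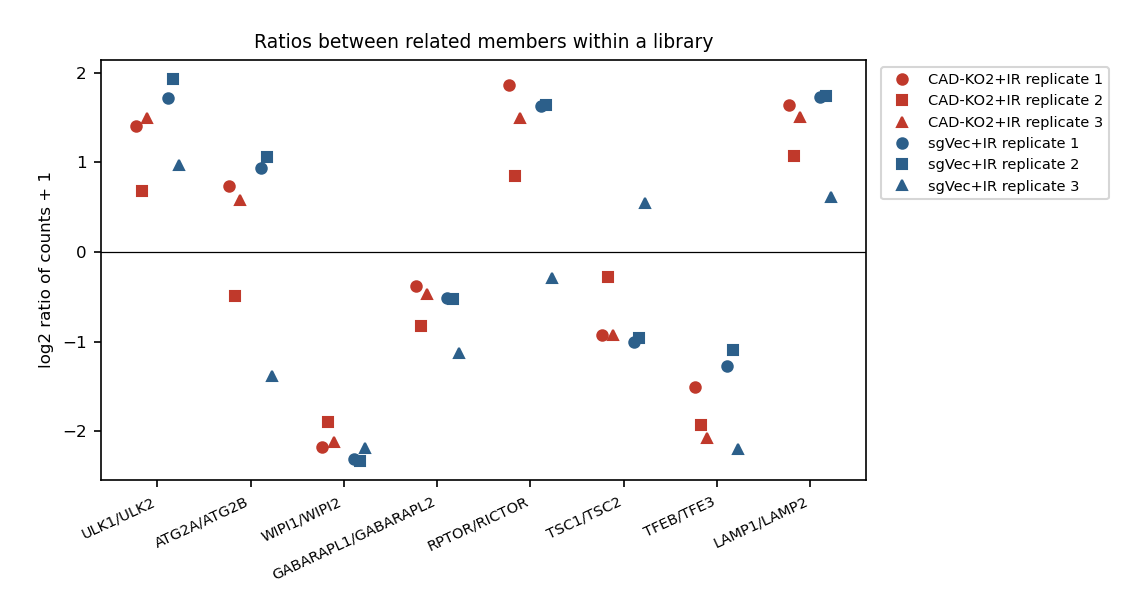
Log2 ratio of counts plus 1 between 8 pairs of related members in each library, CAD-KO2+IR in red and sgVec+IR in blue, with replicates 1, 2 and 3 as circles, squares and triangles. Groups overlap in every pair except WIPI1/WIPI2, and sgVec+IR replicate 3 lies on the other side of 0 from the rest of its group in ATG2A/ATG2B, RPTOR/RICTOR and TSC1/TSC2.

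A further 5 lists of autophagy, mTOR and lysosome genes were read from the same fit, and no gene in them was a DEG. Of 20 other genes of the autophagy machinery 11 were higher and 9 lower (median 0.03), but 8 were higher without sgVec+IR replicate 3 (median −0.10). Of 13 other receptors 7 were higher and 6 lower (median 0.03), and 8 were higher without that library (median 0.09). Of 28 genes for amino acid sensing upstream of mTORC1, such as the Rag, GATOR and sestrin proteins, 8 were higher and 20 lower, with a median of −0.12 and 0 at an unadjusted p under 0.05. When sgVec+IR replicate 3 was left out, 10 were higher and the median was −0.07. Of 26 lysosomal genes 11 were higher and 15 lower (median −0.03), and 10 were higher without that library (median −0.12). Among 16 other mTOR partners and substrates 9 were higher and 7 lower (median 0.05), turning to 5 higher without that library (median −0.04). In this list 2 of 16 genes had an unadjusted p under 0.05 and in the other lists 0 did. These 2 were the only ones over all 5 lists, which hold 108 genes, tested or not, against 2.85% of all genes tested.
DDIT4 (REDD1), a stress-induced inhibitor of mTORC1 that acts through the TSC complex, had 55.3, 35.3 and 52.5 CPM in CAD-KO2+IR and 101, 114 and 53.7 CPM in sgVec+IR. sgVec+IR replicates 1 and 2 were well above every CAD-KO2+IR library, and replicate 3 lay among them. The log2 fold change was −0.91 (SE 0.32, adjusted p = 0.9999, edgeR). In the weighted fit it was −1.02 (adjusted p = 1.19e-05, limma) and after the correction for GC content −0.90 (adjusted p = 0.0121, edgeR). The size was similar in all 3 fits, which reuse the same libraries, and the adjusted p passed in the latter 2. An adjusted p under 0.05 was reached by 22.3% of all genes in the weighted fit. After the correction for GC content 44 of 12925 genes reached it. DDIT4 and DEPTOR were named for their unadjusted p under 0.05 in these same data. DEPTOR, which binds and inhibits mTOR, had 2.55, 1.27 and 2.96 CPM in CAD-KO2+IR and 3.85, 4.59 and 11.99 CPM in sgVec+IR. The groups did not overlap, but the value of sgVec+IR replicate 3 was far above the rest. Its log2 fold change of −1.58 (SE 0.56, adjusted p = 0.9999, edgeR) moved to −0.57 in the weighted fit (adjusted p = 0.0510, limma).

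TFEB and TFE3 bind DNA at motifs around the letters CACGTG. Promoters from RefSeq (GRCh38.p14), each with 250 bases before the start site and 50 from it on, were matched for 38 of 43 members. The motif reads the same on either strand. CACGTG was found in 4 of the 38 (10.5%), ATG14, ATG3, LAMP1 and TSC2, against 7.26% of 35116 promoters. The share of the members counts genes with a match in any of their promoters, whereas the share over all counts promoters. The promoter of LAMP1 had 6 matches and was the only one of all promoters with that many. It is shown with that of ATG3, the member with the highest fold change, from 200 bases before the start site to 5 after it, with CACGTG in capitals. Of the 2 matches in the promoter of ATG3, 1 lies in the stretch shown.
LAMP1 (chr13:113297039-113297243, forward strand): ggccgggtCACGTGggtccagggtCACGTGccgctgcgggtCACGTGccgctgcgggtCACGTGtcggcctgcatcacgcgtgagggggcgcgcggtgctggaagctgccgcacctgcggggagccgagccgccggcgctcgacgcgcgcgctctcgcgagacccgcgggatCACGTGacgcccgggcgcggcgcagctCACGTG
ATG3 (chr3:112561958-112562162, reverse strand): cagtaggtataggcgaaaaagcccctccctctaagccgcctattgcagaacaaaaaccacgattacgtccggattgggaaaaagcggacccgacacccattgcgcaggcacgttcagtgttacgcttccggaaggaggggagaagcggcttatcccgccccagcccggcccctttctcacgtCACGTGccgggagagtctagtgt
The 4 members with a match had log2 fold changes of −0.18 in ATG14, 0.39 in ATG3, 0.15 in LAMP1 and 0.02 in TSC2, and none of them passed the test. A match of letters is a description and not a binding site measured in these cells.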

How the data were processed

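Total RNA from 6 HCT116 libraries was sequenced. The authors trimmed reads in fastp and counted them with featureCounts, and the deposited raw counts of each gene were used without normalization. The labels' processing notes name the mouse build mm10 and the labels call the molecule genomic DNA, but the table holds human gene identifiers. The aligner and the strand setting are not given in the sources used here. GENCODE release 29 on GRCh38 gave positions and GC content, and 19823 of 20020 identifiers matched after their version suffix was dropped.

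Genes were kept by filterByExpr in edgeR 4.0.16 (minimum count 10, minimum total count 15), scaled by TMM and compared by the quasi-likelihood test with Benjamini-Hochberg adjustment over 12925 genes, in R 4.3.3. DESeq2 1.42.0, limma 3.58.1, other normalizations and filters, a replicate block and leaving out each library were alternatives. A lowess correction for GC content (span 0.3) and leaving out both outlying libraries were chosen after seeing the data. Named members are those with an unadjusted p under 0.05, up to 12 whose groups do not overlap and 9 well-known members of the roles, with the lowest and highest of each role. Members and lists were chosen with earlier results of these data known. Without molecular identifiers, reads can be copies of 1 molecule, and limits from counts cover counting error only.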

Additional observations from a re-analysis of the deposited data

How the results depend on the processing

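The alternatives gave 280 values of named members and paralog ratios, and 258 kept their sign and, for members, their side of the threshold. The opposite sign was seen in 21, and 1, TFEB with sample weights at −0.65, was newly past the threshold. Ratios were compared by sign alone. For the 8 ratios the value with the replicate block equals the main value by arithmetic, so that agreement was fixed in advance. With sample weights, 1 member was a downregulated DEG, and at an unadjusted p under 0.05 there were 7 members up and 6 down of 42, against 37.1% of all genes. In that fit ATG5 was at 0.16, MTOR at −0.0786, LAMP1 at −0.00735 and BECN1 at −0.00143. Without both outlying libraries there were 6 up and 6 down, against 29.7% of all genes, with ATG5 at 0.14 and MTOR at −0.0734. The correction for GC content gave 1 up and 2 down, against 669 up and 694 down of 12925 genes. Together with the replicate block it gave 1 up and 1 down, against 453 up and 449 down. With 1 library left out at a time, 0 to 1 members were up and 0 to 2 down, the highest numbers being without sgVec+IR replicate 3. Over all 13090 to 13141 genes tested in these fits, 67 to 681 were up and 93 to 877 down. The log2 fold change then ran from −0.52 to 0.0876 for ULK1, −0.45 to 0.28 for ATG5, −0.46 to 0.16 for MAP1LC3B, −0.0190 to 0.29 for SQSTM1 and −0.0806 to 0.29 for MTOR. Differences of log2 ratios ran from −0.73 to 0.50 for ATG2A/ATG2B, −0.0418 to 0.30 for GABARAPL1/GABARAPL2, −0.23 to 0.73 for RPTOR/RICTOR, −0.50 to 0.27 for TSC1/TSC2 and −0.33 to 0.24 for LAMP1/LAMP2. Differences of ATG8 shares ran from −0.0242 to 0.122 percentage points for GABARAP, −2.92 to −0.437 for GABARAPL2, −2.52 to 3.798 for MAP1LC3B and −1.46 to 2.83 for GABARAPL1. The cause was not tested.

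Same-numbered libraries of the 2 groups had correlations of their deviations from the group means of 0.57, −0.64 and −0.46. The outlying libraries, CAD-KO2+IR replicate 2 and sgVec+IR replicate 3, were at 0.65 with each other. They enter every group mean, so this check cannot decide whether the numbers pair libraries. With the replicate block 0 members were DEGs and 0 had an unadjusted p under 0.05, and the number of DEGs over all genes went from 4 to 0. At an unadjusted p under 0.05, 64 of 12925 genes were up and 82 down in that fit. The 12 members of the naming rule kept their sign and side of the threshold under DESeq2, the other normalizations and filters and the legacy fit, which were not run on the ratios. GABARAP, with 1 to 7 counts per library, had too few to be tested.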
